A study of Mus musculus with 9 samples.

Results

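Amino acid transporters were followed in basal epidermal cells of mouse tail skin at day 4 after a 3 mm wound. They were taken as every gene whose only symbol on the array belongs to the solute carrier families SLC1, SLC3, SLC6, SLC7, SLC36, SLC38 or SLC43, which gave 58 of the 17097 genes measured, read by 102 probe sets. Of these, 27 had a mean signal above a log2 value of 6.5 in at least 1 group and are described one by one, against 10895 genes above that floor in the whole data set. The other 31 stayed below it in every group. The label fits the gene families rather than each gene: several SLC6 members carry taurine, creatine, noradrenaline or serotonin instead of protein-building amino acids, Slc43a3 carries purine nucleobases, and Slc6a19os and Slc36a1os are RNAs from the strand opposite a carrier gene.

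The study compared 3 regions of wounded skin from CD1 mice, an outbred strain, with 3 arrays per region and no transgene named in the labels. Leading edge (LE) cells came from a 4 mm punch centred on the wound and were gated as α5 integrin positive. Proliferative hub cells were gated as α5 integrin negative. The methods describe a 6 mm punch for the hub, but the supplement names, beside control skin, only the 4 mm punch for the α5 integrin sort. The punch of these hub cells is thus unsettled. For control cells, cut from skin of wounded mice at a distance from the wound, no α5 integrin gate is named. All cells were α6 integrin positive, which marks the basal layer, and CD34 negative, which leaves out hair follicle bulge cells. Each array was made from amplified cDNA of 300 cells, with tissue pooled from 5 mice. The methods give that pool of CD1 mice for duplicate samples at each time point and do not restate it for triplicate arrays. Whether the arrays of a group are biological replicates (as labelled) or technical ones (as the methods have it) is unsettled, and p-values cover only the spread among them. Region, wounding and the α5 integrin gate cannot be told apart in this design. Fewer cells of a type and less RNA per cell cannot be told apart either.

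Values are RMA log2 signals, so a difference of 1 is 2-fold, and a gene was called when limma gave a Benjamini-Hochberg adjusted p under 0.05 over all genes. Array medians lay between 6.473 and 6.534 and 0 pairs of arrays were identical. Itga5, which encodes the gated α5 integrin, averaged 9.11 ± 0.05 at the LE, 6.92 ± 0.51 in the hub and 6.4 ± 0.14 in the controls (mean ± SD of 3 arrays, as for all means below). The basal markers Krt5, Krt14, Itga6, Itgb4, Col17a1 and Trp63 averaged 12.62 to 12.82 on every array. Split by group, their array means were 12.77 to 12.82 at the LE, 12.62 to 12.64 in the hub and 12.63 to 12.7 in control. Itga6 (0.47 and 0.69) and Itgb4 (0.38 and 0.34) were called higher at the LE than in the hub and in control. The other basal markers were called in no comparison. Probe sets for nonspecific background reached up to 8.61 on a single array, and 15 of the 27 transporters, 5 of them called, had no group mean above that value, so their folds are less certain. Of the genes above it, Slc6a4 and Slc6a9 lay below it at the LE, at 7.17 and 8.41, and Slc6a4 in the hub as well, at 8.27. Slc43a2, which was not called, lay below it at the LE (8.42) and in control (8.33). The low side of the folds of these genes is less certain too.

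Solute carriers move amino acids across the plasma membrane and the lysosomal membrane, some coupled to sodium and some by exchanging one amino acid for another. Members of SLC7 often work as light chains that need an SLC3 heavy chain to reach the cell surface, while SLC38 members bring in small neutral amino acids and SLC6 members use sodium and chloride gradients. In epidermis the imported amino acids feed keratin and filaggrin synthesis, and leucine, arginine and glutamine are sensed by the growth kinase complex mTORC1 at the lysosome. Several carriers, Slc7a1, Slc7a5, Slc3a2 and Slc38a2 among them, are known targets of ATF4, the transcription factor of the amino acid response.

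Among the 27 transporters above the floor, those called at the LE were mostly lower there. The LE mean was below the hub mean in 16 of the 27 and below the control mean in 15. Against the hub, 8 of the 27 were lower and 0 higher at the LE (29.6% lower), where 8.04% of all genes above the floor were called lower and 7.97% higher. Against control skin, 10 were lower and 2 higher (37.0% and 7.41%), where 16.0% of genes above the floor were lower and 17.4% higher. In the hub against control skin 3 were lower and 0 higher (11.1% lower), where the shares were 4.64% and 6.42%. The floor keeps a gene through the group where it is high, so counts over all 58 genes, which use no floor, are given too. Of the 58, 9 were called between LE and hub (15.5%, all lower, against 10.6% of all genes). Between LE and control 14 were called (24.1%, 11 lower and 3 higher, against 22.8%), and 3 between hub and control (5.17%, all lower, against 7.28%). Taken in either direction, the shares of all 58 called against control were thus near those of all genes. The LE and the hub were compared with the same 3 control arrays, so the last 2 comparisons are not independent.

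Median differences of the 27 were -0.22 for LE minus hub, -0.12 for LE minus control and -0.04 for hub minus control, beside -0.01, 0.02 and 0.03 for all genes. The 3 group means ran down from control through hub to LE in 12 genes, ran up in 7 and had another order in 8. In all, 14 of the 27 were called in at least 1 comparison, 2 of them (Slc38a2 and Slc6a4) in all 3, and 13 in none. A fall of more than 2-fold that was also called was seen for Slc6a4 and Slc6a6 against the hub (1.05% of all genes above the floor) and for Slc6a4, Slc6a6, Slc7a6 and Slc43a1 against control (3.18%). Slc43a1 passed the floor through control alone, and its LE mean of 5.79 lies below it. No transporter fell that far in the hub (0.780%). The study's own rule, a change above 2-fold in each replicate, was read here as in each same-numbered pair of arrays. It kept Slc6a4, Slc6a6 and Slc7a6 as lower at the LE than in control (1.92% of genes above the floor), and 0 transporters for LE against hub (0.551%) or hub against control (0.349%).

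**Figure D1:**
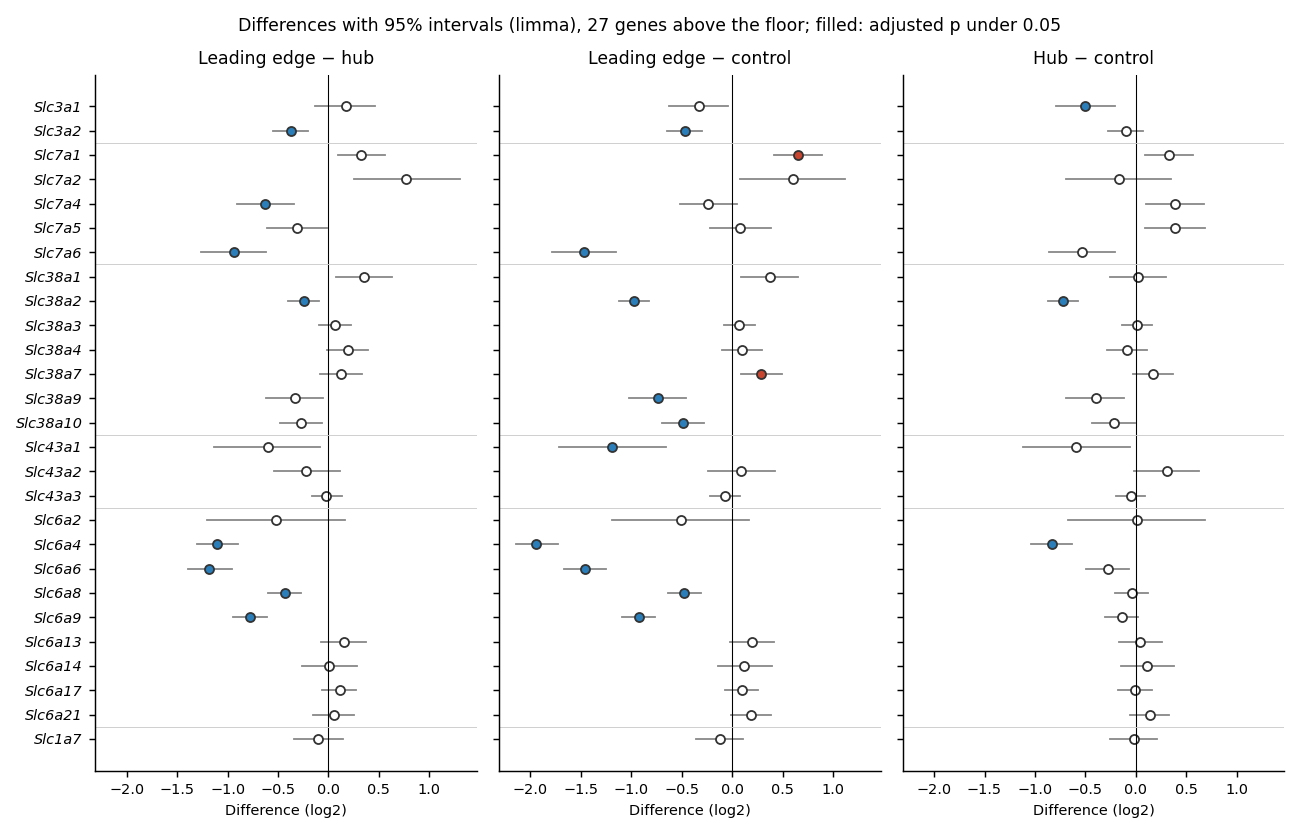
Differences in log2 signal of the 27 transporter genes above the floor, grouped by family, for LE minus hub, LE minus control and hub minus control. Points are limma estimates with 95% intervals, filled where the adjusted p was under 0.05 (blue lower, red higher); the filled points lie left of 0 apart from Slc7a1 and Slc38a7 in the middle panel.

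Promoter sequence was available from RefSeq (mouse assembly GRCm38.p6) for 18 of the 27, as 28 windows of 300 bases that lie mostly before a start site. Slc38a1, Slc38a3, Slc43a3, Slc6a2, Slc6a6, Slc6a8, Slc7a2, Slc7a4 and Slc7a5 had no window. Both strands were searched for 4 short motifs. TGANTCA, the letters bound by AP-1, was found in 7 of the 28 windows (7.81% of all promoter windows) and TGACNNNGC, the core of the antioxidant response element, in 8 (12.4%). These 2 patterns can overlap on the same bases. CACGTG, the E-box, was in 3 windows (7.15%) and TGATGNAA, the core that ATF4 and C/EBP proteins bind, in 1, that of Slc6a21 (3.97%). Windows of 1 gene overlap in places, so windows are not independent, and a match is only a string of letters. Stretches of 80 bases are shown for 3 called genes in which the match lies outside the annotated gene, namely a carrier that was higher at the LE (Slc7a1) and a pair that were lower by the probe set used (Slc38a10 and Slc38a2). All are read 5′ to 3′ on the strand of the gene, here the minus strand, with the match in capitals (TGANTCA in Slc7a1 and Slc38a10, TGACNNNGC in Slc38a2).
Slc7a1, chr5:148399985-148400064: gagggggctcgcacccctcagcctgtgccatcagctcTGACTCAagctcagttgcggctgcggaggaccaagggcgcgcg
Slc38a10, chr11:120151475-120151554: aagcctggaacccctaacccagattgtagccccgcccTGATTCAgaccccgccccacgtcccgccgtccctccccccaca
Slc38a2, chr15:96699729-96699808: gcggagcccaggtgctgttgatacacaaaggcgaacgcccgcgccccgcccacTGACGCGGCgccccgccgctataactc
Counted from the start site, the Slc7a1 match begins at position -123, that of Slc38a10 at -166 and that of Slc38a2 at -27. The direction of Slc38a10 depends on its probe set, as given with its values.

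The heavy chains came first, because SLC7 exchangers depend on them. Slc3a2 encodes CD98, the heavy chain shared by LAT1 and y+LAT2. It read 10.31, 10.22 and 10.31 on the LE arrays, 10.57, 10.75 and 10.64 in the hub and 10.67, 10.73 and 10.86 in control skin. All LE arrays lay below all others, while hub and control overlapped. The LE was lower than the hub by a log2 difference of -0.37 ± 0.08 (SE, 1.29-fold, adjusted p = 0.0145) and lower than control by -0.47 ± 0.08 (1.39-fold, adjusted p = 0.00178), and hub minus control was -0.10 (adjusted p = 0.559). The call against the hub was lost without LE replicate 2 (-0.34, adjusted p = 0.0613), and likewise without hub replicate 2 (-0.32, adjusted p = 0.0596). Slc3a1 encodes rBAT, the heavy chain of the cystine exchanger of kidney and gut. It read 6.23, 6.71 and 6.54 at the LE, 6.35, 6.47 and 6.17 in the hub and 6.85, 6.94 and 6.70 in control, close to the floor throughout. The hub arrays lay below the control arrays, and the LE arrays overlapped both. Hub minus control was -0.50 ± 0.13 (adjusted p = 0.049), which missed the threshold without LE replicate 3, any hub array or any control array (-0.57 to -0.42, adjusted p = 0.0575 to 0.17). In Slc3a1, LE minus control was -0.33 (adjusted p = 0.101), called only without LE replicate 2 (-0.44, adjusted p = 0.0499).

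The light chains of CD98 differed in how they changed. Slc7a6, which encodes y+LAT2, an exchanger of arginine for glutamine, read 9.02, 8.76 and 9.14 at the LE, 10.12, 9.92 and 9.69 in the hub and 10.59, 10.52 and 10.22 in control. The 3 groups did not overlap and stepped down from control to LE. LE minus hub was -0.94 ± 0.14 (1.92-fold, adjusted p = 0.00285) and LE minus control -1.47 ± 0.14 (2.77-fold, adjusted p = 7.26e-05), and both probe sets of the gene were called lower in both comparisons. Hub minus control was -0.53 ± 0.14 (adjusted p = 0.0563) and was called once hub replicate 1 was left out (-0.64, adjusted p = 0.048) or control replicate 3 was (-0.64, adjusted p = 0.0369). Slc7a5, which encodes LAT1, the main importer of leucine and other large neutral amino acids, averaged 10.03 ± 0.07 at the LE, 10.34 ± 0.11 in the hub and 9.95 ± 0.29 in control. None of its comparisons passed the test: LE minus hub was -0.31 (95% interval -0.61 to -0.01, adjusted p = 0.207), LE minus control 0.08 (-0.22 to 0.38, adjusted p = 0.736) and hub minus control 0.39 (0.09 to 0.69, adjusted p = 0.129). Control replicate 2 overlapped the hub arrays, and without it hub minus control was called (0.53, adjusted p = 0.0277). LE and hub arrays of Slc7a5 did not overlap, and the fit on those 6 arrays alone called the difference (adjusted p = 0.0499).

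Carriers of cationic amino acids held the clearest rise. Slc7a1 encodes CAT1, which imports arginine, lysine and ornithine. It read 11.31, 11.12 and 11.22 at the LE, 10.79, 10.92 and 10.97 in the hub and 10.55, 10.77 and 10.38 in control. Its 3 groups did not overlap and stepped up from control to LE, the reverse of Slc7a6. The LE exceeded control by 0.65 ± 0.11 (1.57-fold, adjusted p = 0.00161), a call kept in every leave-one-out fit, and all 3 probe sets were higher (0.50 to 0.88). The steps on the way were not called, at 0.32 for LE minus hub (adjusted p = 0.0903) and 0.33 for hub minus control (adjusted p = 0.103); the latter was called without control replicate 2 (0.43, adjusted p = 0.0368). Slc7a2, which encodes the related carrier CAT2, averaged 7.11 ± 0.48, 6.33 ± 0.22 and 6.51 ± 0.28 in LE, hub and control. LE replicate 1 read 7.65 against 6.77 and 6.89 for the other LE arrays. LE minus hub was 0.77 ± 0.23 (adjusted p = 0.0672) and LE minus control 0.60 ± 0.23 (adjusted p = 0.0994), so neither passed, although all LE arrays lay above all hub arrays. Of its 4 probe sets, 1 not used here was called higher at the LE than in the hub (0.54, adjusted p = 0.0221) and 2 not used here than in control (0.61 and 0.31, adjusted p = 0.0059 and 0.0418), and the mean of all 4 was called against control (0.50, adjusted p = 0.0311).

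Slc7a4, which resembles the cationic carriers but whose transport activity is unsettled, had another pattern. It read 6.72, 6.81 and 6.92 at the LE, 7.68, 7.37 and 7.29 in the hub and 6.84, 7.24 and 7.09 in control. The hub arrays were above all others, and LE and control overlapped. LE minus hub was -0.63 ± 0.13 (1.54-fold, adjusted p = 0.0127), while LE minus control was -0.24 (adjusted p = 0.237) and hub minus control 0.39 (adjusted p = 0.114). The other probe set of the gene, with group means of 6.04, 6.34 and 6.39 in LE, hub and control, gave different calls. There LE minus hub was -0.30 (adjusted p = 0.138), LE minus control -0.35 (adjusted p = 0.0467) and hub minus control -0.05 (adjusted p = 0.869), so the raised hub level rests on 1 of 2 probe sets.

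**Figure D2:**
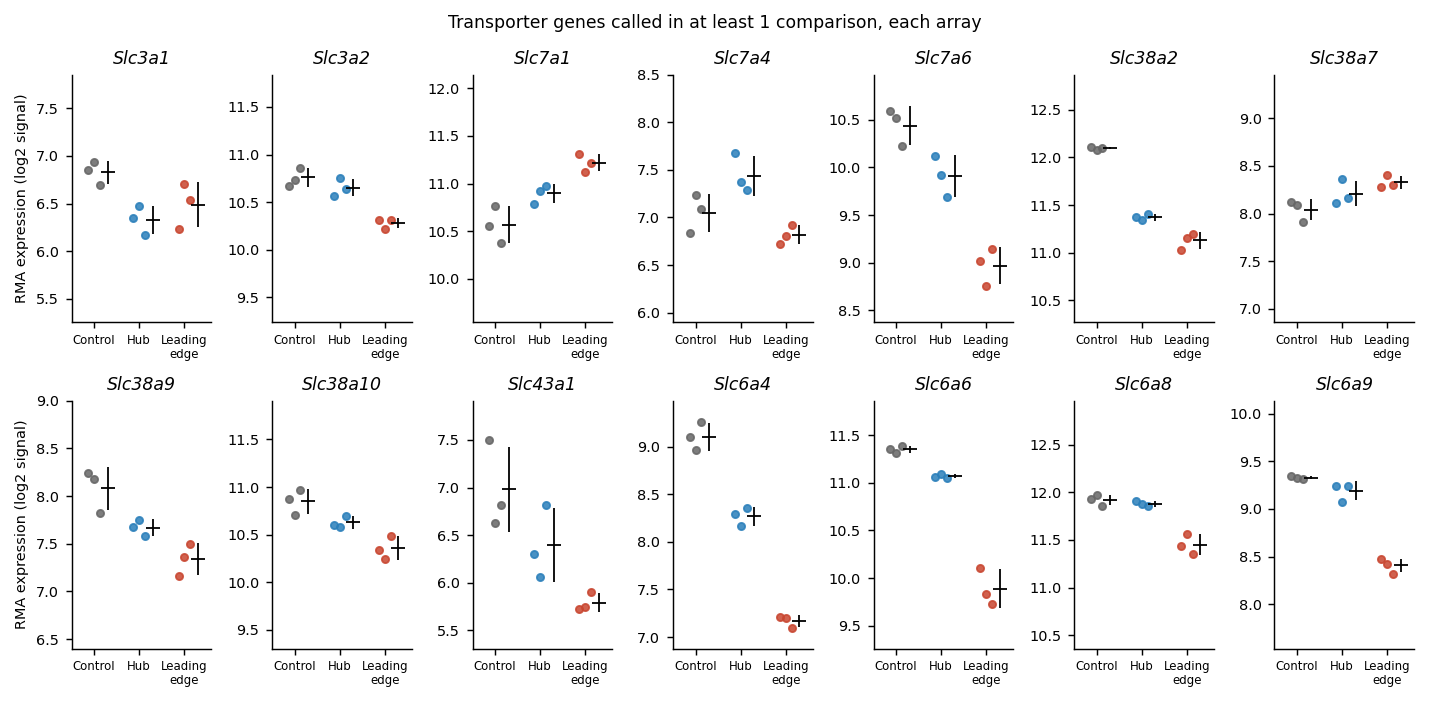
RMA log2 signal of the 14 transporter genes called in at least 1 comparison, with each array as a point and the mean with its SD as a bar beside it. Every panel spans the same number of log2 units, so steps can be compared by eye while heights of different genes cannot; Slc6a4, Slc6a6 and Slc7a6 show the steepest descents and Slc7a1 the one clear climb.

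Among Slc38a1, Slc38a2 and Slc38a4, sodium-coupled carriers of the SLC38 family, only Slc38a2 was called by the probe sets used, as lower. Slc38a2 encodes SNAT2, the inducible importer of alanine, glutamine and other small neutral amino acids. It read 11.03, 11.15 and 11.20 at the LE, 11.37, 11.34 and 11.41 in the hub and 12.11, 12.08 and 12.10 in control. Control arrays stood well above both wound regions, and no groups overlapped. LE minus control was -0.97 ± 0.07 (1.96-fold, adjusted p = 9.14e-06) and hub minus control -0.72 ± 0.07 (1.65-fold, adjusted p = 0.000436), with all 3 probe sets called lower in both. The smaller step from hub to LE (-0.24 ± 0.07, adjusted p = 0.0491) was lost in each of the 9 leave-one-out fits (-0.28 to -0.20, adjusted p = 0.0559 to 0.153) and is no firm difference. Slc38a1 and Slc38a4, carriers of the same transport system, were called in no comparison by the probe sets used. Slc38a1 averaged 6.51 ± 0.20, 6.16 ± 0.21 and 6.14 ± 0.08 in LE, hub and control (adjusted p = 0.0631 to 0.968), and its LE minus control difference of 0.37 was called when LE replicate 2 was left out (0.48, adjusted p = 0.0274) and when hub replicate 1 was (0.37, adjusted p = 0.0396). Slc38a4 averaged 10.55 ± 0.14, 10.36 ± 0.02 and 10.45 ± 0.11 (adjusted p = 0.26 to 0.70), while its other probe set was called lower in the hub than in control (-0.47, adjusted p = 0.0417) with LE minus control at -0.32.

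The other SLC38 members above the floor were read next, lysosomal ones among them. Slc38a9 encodes the lysosomal arginine sensor that acts on mTORC1 through the Rag GTPases. It read 7.16, 7.36 and 7.5 at the LE, 7.68, 7.75 and 7.58 in the hub and 8.24, 8.18 and 7.82 in control. The groups did not overlap and stepped down toward the wound front. LE minus control was -0.74 ± 0.13 (1.67-fold, adjusted p = 0.0022), hub minus control -0.40 (adjusted p = 0.0948, called without control replicate 3 at -0.54, adjusted p = 0.0245) and LE minus hub -0.33 (adjusted p = 0.141). Only 1 of its 4 probe sets was called lower than control on its own, with the 4 between -0.75 and -0.07. Slc38a7, a lysosomal exporter of glutamine and asparagine, read 8.28, 8.41 and 8.30 at the LE, 8.11, 8.36 and 8.16 in the hub and 8.12, 8.09 and 7.91 in control. LE arrays were above control arrays and the hub overlapped both. Against control the LE differed by 0.29 ± 0.09 (1.22-fold, adjusted p = 0.0438), and the call was lost without any LE array, any control array or hub replicate 3 (0.23 to 0.33, adjusted p = 0.0502 to 0.141). Slc38a10, a transporter of glutamine and related amino acids, read 10.34, 10.24 and 10.49 at the LE, 10.60, 10.58 and 10.70 in the hub and 10.87, 10.71 and 10.97 in control. Its groups stepped down without overlap, and LE minus control was -0.49 ± 0.09 (1.41-fold, adjusted p = 0.00392). The call depends on the probe set: the 8 probe sets ran from -0.49 to 0.31, 2 were called lower, and their mean gave -0.09 (adjusted p = 0.39). Slc38a3, a glutamine carrier, stayed between 7.56 and 7.77 on all arrays (adjusted p = 0.524 to 0.968).

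**Figure D3:**
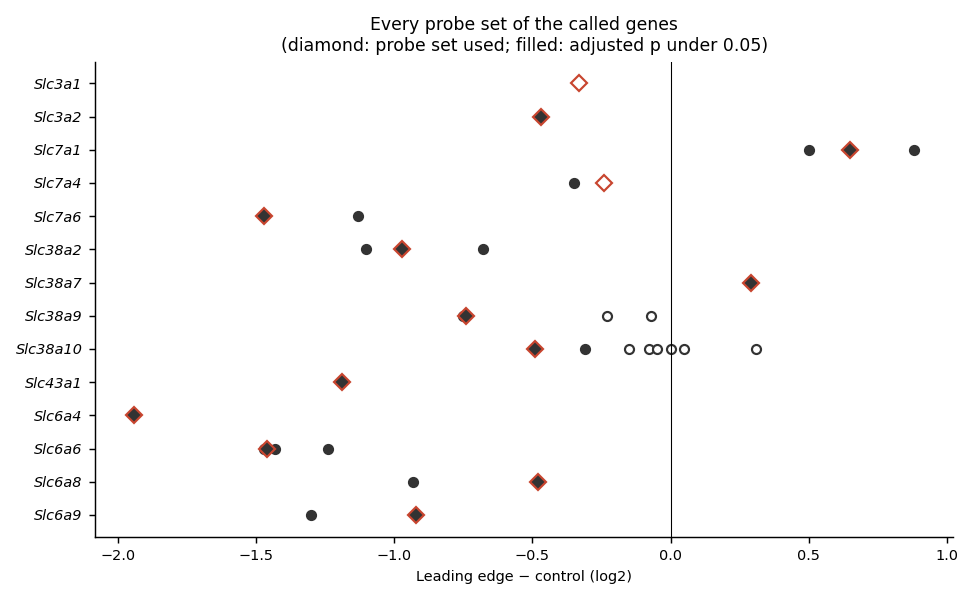
LE minus control difference in log2 signal for every probe set of the 14 called genes. The diamond is the probe set used, and filled marks were called when every probe set was tested; the probe sets of Slc6a6, Slc6a8, Slc6a9, Slc7a6, Slc38a2 and Slc7a1 lie on 1 side of 0, while those of Slc38a10 straddle it.

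LAT3 and LAT4 of the SLC43 family carry large neutral amino acids without sodium. Slc43a1, which encodes LAT3, read 5.72, 5.75 and 5.90 at the LE, 6.30, 6.06 and 6.82 in the hub and 7.5, 6.63 and 6.82 in control. Every LE array was below every other array, while hub and control overlapped. LE minus control was -1.19 ± 0.24 (2.28-fold, adjusted p = 0.0051), while LE minus hub was -0.60 (adjusted p = 0.155) and hub minus control -0.59 (adjusted p = 0.20). Slc43a2, which encodes LAT4, averaged 8.42 ± 0.28, 8.64 ± 0.11 and 8.33 ± 0.19 in LE, hub and control (adjusted p = 0.296 to 0.728). Slc43a3 lay between 6.87 and 7.0 on all arrays (adjusted p = 0.512 to 0.93).

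The SLC6 family held the steepest falls. Slc6a4, on chr11:76998597-77032343, encodes the serotonin transporter. It read 7.21, 7.20 and 7.10 at the LE, 8.29, 8.17 and 8.35 in the hub and 9.10, 8.96 and 9.26 in control. The 3 groups were wide apart with little spread inside each. The difference from control was -1.94 ± 0.09 (3.82-fold, adjusted p = 8.84e-07), that of LE minus hub -1.10 ± 0.09 (2.15-fold, adjusted p = 8.48e-05) and hub minus control -0.83 ± 0.09 (1.78-fold, adjusted p = 0.000831). All 3 calls held in every leave-one-out fit, although a single probe set reads the gene. Slc6a6, on chr6:91684048-91759063, encodes the transporter of taurine, which cells use as an osmolyte. It read 10.11, 9.83 and 9.73 at the LE, 11.06, 11.09 and 11.05 in the hub and 11.35, 11.31 and 11.39 in control. The fall was largely between hub and LE: LE minus hub was -1.18 ± 0.09 (2.26-fold, adjusted p = 7.64e-05), LE minus control -1.46 ± 0.09 (2.75-fold, adjusted p = 6.14e-06) and hub minus control -0.28 ± 0.09 (adjusted p = 0.121; called without LE replicate 1 at adjusted p = 0.034). All 4 probe sets were lower at the LE, by -1.18 to -0.95 against the hub and -1.47 to -1.24 against control.

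Glycine and creatine carriers were lower at the LE, with no call in the hub. Slc6a9, which encodes the glycine transporter GlyT1, read 8.47, 8.42 and 8.32 at the LE, 9.24, 9.07 and 9.24 in the hub and 9.35, 9.33 and 9.31 in control. LE arrays were far below the rest, and hub arrays just below control. LE minus hub was -0.78 ± 0.07 (1.72-fold, adjusted p = 0.000216), LE minus control -0.92 ± 0.07 (1.90-fold, adjusted p = 2.06e-05) and hub minus control -0.14 (95% interval -0.31 to 0.02, adjusted p = 0.341). Slc6a8, which encodes the creatine transporter, read 11.44, 11.56 and 11.35 at the LE, 11.91, 11.88 and 11.86 in the hub and 11.93, 11.97 and 11.86 in control. Hub and control overlapped, and all LE arrays were lower. LE minus hub was -0.43 ± 0.07 (1.35-fold, adjusted p = 0.00475), LE minus control -0.48 ± 0.07 (1.39-fold, adjusted p = 0.00124) and hub minus control -0.04 (-0.21 to 0.12, adjusted p = 0.847). Both probe sets of Slc6a9 and both of Slc6a8 were called lower at the LE in both comparisons.

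The other SLC6 members above the floor were called in no comparison. Slc6a14, a carrier of neutral and cationic amino acids, averaged 7.0 ± 0.23, 6.99 ± 0.11 and 6.87 ± 0.11 in LE, hub and control (adjusted p = 0.53 to 0.982). Slc6a2, the noradrenaline transporter, was the most scattered, with control arrays at 8.5, 9.0 and 7.71. Its LE minus control difference of -0.51 (adjusted p = 0.286) was called only without control replicate 3 (-0.86, adjusted p = 0.0319). Slc6a13, a transporter of the inhibitory transmitter GABA, averaged 6.66 ± 0.08, 6.51 ± 0.14 and 6.47 ± 0.13 (adjusted p = 0.195 to 0.879). Slc6a17, a neutral amino acid carrier of synaptic vesicles, averaged 6.96 ± 0.08, 6.85 ± 0.08 and 6.86 ± 0.05 (adjusted p = 0.414 to 0.98), and Slc6a21 averaged 6.78 ± 0.08, 6.74 ± 0.11 and 6.60 ± 0.12 (adjusted p = 0.175 to 0.832). The SLC1 family of glutamate and neutral amino acid carriers was represented above the floor by Slc1a7, a glutamate transporter, at 6.57 ± 0.17, 6.67 ± 0.14 and 6.69 ± 0.10 (adjusted p = 0.474 to 0.946).

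Below the floor were 5 of 6 SLC1 genes, all 4 SLC36 genes, 10 of 15 SLC7 genes, 10 of 19 SLC6 genes and 2 of 9 SLC38 genes. The group means just inside it were 6.51 for Slc38a1, 6.66 for Slc6a13 and 6.69 for Slc1a7, and those just outside were 6.49 for Slc38a6, 6.48 for Slc1a5 and 6.46 for Slc6a19os. Some well known carriers were on the dim side in all groups, such as Slc7a11, the cystine importer (4.90 to 5.04), Slc7a8, the light chain LAT2 (4.56 to 4.71), and Slc36a1, the lysosomal proton-coupled carrier (6.12 to 6.33); they were named after their values were seen. A low array value does not show that a gene is silent. Of the 31, Slc1a3 was called lower at the LE against both other regions (5.27 in control and 4.82 at the LE) and Slc6a20a higher at the LE than in control (6.37 against 5.27), and 0 were called in the hub against control.

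Markers of other cells were read on the same arrays, where 10.6% of all genes were called between LE and hub, 22.8% between LE and control and 7.28% between hub and control. The suprabasal markers Krt1, Krt10 and Krtdap were lower at the LE (3 of 7 listed genes called lower against each other region), while Ivl of the same list was called higher than in control (0.57, adjusted p = 0.0161). The array means of the list were 9.06 to 9.42 at the LE, 9.75 to 9.84 in the hub and 9.64 to 9.85 in control. Myeloid markers averaged 5.97 to 6.62 at the LE, 5.88 to 5.96 in the hub and 5.87 to 5.91 in control, with 2 of 14 called higher at the LE than in the hub and 3 than in control. Endothelial markers averaged 7.28 on LE replicate 1, above the 5.95 to 6.65 of the other 8 arrays, with 0 of 9 called. Langerhans cell markers averaged 7.21 to 7.81 at the LE and 6.89 to 7.05 elsewhere, with 2 of 6 called higher than in the hub and 1 than in control. They were H2-Ab1 (1.93 against the hub and 2.34 against control) and Epcam (1.04 against the hub). Epcam was also lower in the hub than in control (-0.8). Cd207 (5.22, 5.28 and 5.31 in LE, hub and control), H2-Aa, Cd74 and Itgax were called in no comparison. Melanocyte markers averaged 6.49 on LE replicate 3 and 5.70 to 6.02 on the others, with 1 of 8 called lower at the LE than in control. The array means of some marker lists stepped down from control to LE as many transporters did. Fibroblast markers averaged 6.26 to 6.4 at the LE, 6.49 to 6.53 in the hub and 6.62 to 6.64 in control. Of 8 listed, 2 were called lower at the LE than in control and 1 than in the hub, with 0 higher. Dcn was lower by -1.65 at the LE and -1.09 in the hub against control. Thy1, which T cells share, was lower by -1.28 at the LE against control and -1.23 against the hub. Col1a1 ran the other way without a call (0.65 at the LE against control and 0.60 against the hub). T cell markers averaged 6.29 to 6.48 at the LE and 6.60 to 6.67 elsewhere, with Thy1 the 1 of 5 called. Hair follicle bulge markers averaged 6.54 to 6.81 at the LE, 6.81 to 6.98 in the hub and 7.15 to 7.25 in control, with 1 of 5 called in each comparison, the keratin Krt15 (11.05 in control, 9.86 in the hub and 8.64 at the LE). Sebocyte markers overlapped between the groups, with 1 of 4, the lipid droplet gene Plin2, called higher at the LE than in control (1.44). The part of any of these in the transporter differences was not tested. Without LE replicate 1, and equally without LE replicate 3, 7 transporters were called lower at the LE than in the hub and 10 lower than in control. Without LE replicate 2 these counts were 6 and 11. Myeloid markers were raised on LE replicates 1 and 3 (6.62 and 6.47), so leaving out 1 array does not decide their part.

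Genes around amino acid supply were set beside the carriers, to show what the same cells did with the machinery that uses or senses amino acids. In the amino acid response list, 5 of 16 genes were higher at the LE than in the hub and 0 lower (10.6% of all genes were called), and 7 were higher and 4 lower than in control (22.8%). For the hub against control, 1 was higher and 3 were lower (7.28%). Atf4 itself, named after its values were seen, was called in no comparison (adjusted p = 0.078 to 0.78). Trib3, a pseudokinase induced by ATF4, rose by 1.22 ± 0.13 over the hub and 2.43 ± 0.13 over control, and in the hub it was also 1.22 above control (adjusted p = 0.000842). Nupr1, a stress-induced regulator, was higher by 1.22 and 1.78, Sesn2, a leucine sensor that restrains mTORC1, by 1.03 and 1.12, and Ddit4, another brake on mTORC1, by 0.70 and 0.90. The fifth gene higher in both was Stc2 (0.52 and 0.73), named after its value was seen. Atf3, a stress-induced transcription factor, went the other way, at -1.18 ± 0.11 against control, and was also lower in the hub than in control (-0.87, adjusted p = 0.00167). Ppp1r15a (-0.84), Cebpg (-0.8) and Vldlr (-0.8) were called lower at the LE than in control too, and Chac1 (0.76) and Cebpb (0.31) higher. These genes were also named after their values were seen. Of the carriers named above as ATF4 targets, Slc7a1 was higher at the LE than in control, Slc38a2 and Slc3a2 were lower, and Slc7a5 was not called.

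Of 16 measured aminoacyl-tRNA synthetases, which load amino acids onto tRNA, 8 were higher at the LE than in control and 6 in the hub than in control, with 0 lower, beside 17.4% and 6.42% of genes above the floor called higher. Between LE and hub 0 were called, beside 10.6% of all genes. Gars was higher by 0.97 at the LE and 0.73 in the hub, Rars by 0.74 and 0.55, and Iars by 0.72 and 0.67. Among 8 enzymes of serine, asparagine and one-carbon metabolism, 1 was higher and 1 lower at the LE than in the hub, 3 were higher and 1 lower at the LE than in control, and 3 were higher in the hub than in control, beside 10.6%, 22.8% and 7.28% of all genes called. Mthfd1l, a mitochondrial folate enzyme, rose by 1.64 at the LE and 0.92 in the hub over control. Phgdh, the first enzyme of serine synthesis, was lower at the LE than in the hub (-0.78 ± 0.08, adjusted p = 0.000313). Asns, asparagine synthetase, was 0.46 above control in both regions.

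For the sensing machinery that Slc38a9 belongs to, 3 of 18 genes of mTORC1 and its lysosomal partners were lower at the LE than in the hub and 0 higher, beside 8.04% of genes above the floor called lower. They were Sesn1 (-1.11), Sesn3 (-0.66) and Deptor (-0.61), and all 3 restrain mTORC1. Sesn2 and Ddit4 of the amino acid response list, which restrain mTORC1 too, were higher at the LE than in the hub (1.03 and 0.70). Against control 3 of the 18 were higher and 4 lower at the LE (22.8% of all genes were called), and 0 were called in the hub (7.28%). Among 8 enzymes of glutamate, cystine and glutathione metabolism, 3 were higher and 1 lower at the LE than in control, and 2 were higher and 1 lower in the hub, beside the same 22.8% and 7.28%. Cbs, which makes cystathionine from homocysteine, was lower at the LE by -1.03 ± 0.07 against the hub and -1.50 ± 0.07 against control (adjusted p = 8.84e-07). Gclm, a subunit of the enzyme that starts glutathione synthesis, was 1.01 higher at the LE and 0.81 higher in the hub than in control. In 11 carriers of other families, 1 was higher and 1 lower at the LE than in the hub, beside the same 10.6%. Slc15a2, a peptide transporter, was the lower one (-0.91 against the hub and -1.19 against control) and Slc15a4, a lysosomal histidine and peptide transporter, the higher one (0.36 and 0.37).

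**Figure D4:**
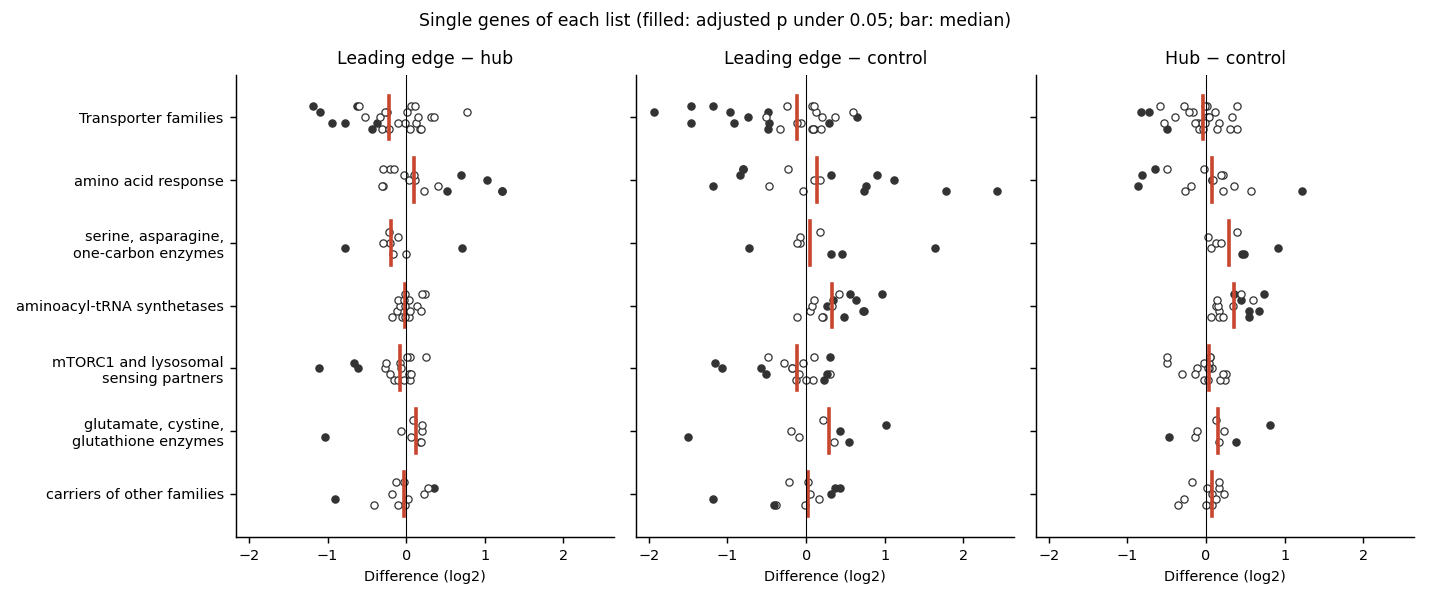
Differences in log2 signal for single genes of the 27 transporters and of 6 related gene lists, in the 3 comparisons. Each point is a gene, filled where its adjusted p was under 0.05, and the red bar is the median of the list. The aminoacyl-tRNA synthetases lie right of 0 in both comparisons with control (medians 0.33 and 0.35), apart from Qars at the LE (-0.12). The filled transporter points lie mostly left of 0.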

How the data were processed

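The deposited values are log2 expression that the authors made with RMA (version not given in the sources used here), which corrects background, gives all 9 arrays 1 distribution and summarises each probe set. A change in total RNA therefore cannot be measured, and differences of dim genes are compressed. Of 45141 probe sets, 28898 had 1 gene symbol on the platform. For each of 17097 genes, the probe set of highest mean signal was used. Correlations between arrays were 0.988 to 0.995 within groups and 0.964 to 0.986 between groups, over all probe sets. limma 3.58.1 (R 4.3.3; lmFit, eBayes) fitted 1 model of 3 group means to all 9 arrays, two-sided, with Benjamini-Hochberg adjustment over all genes, and was tested on simulated data. The number of arrays limits the precision. All 58 transporters were found in RefSeq by gene ID. The members, gene lists and tests were chosen with earlier results of these data known. Transporters above the floor are all named, and list genes were named among the 5 with the largest called difference, apart from those said to be chosen after their values were seen and marker genes. Alternatives were a replicate block, other variance models, scalings, floors, probe set rules and fold rules, and leaving out each array.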

Additional observations from a re-analysis of the deposited data

Results flagged for a closer look

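Slc7a4 was the 1 transporter above the floor whose differences from control had opposite signs in the wound regions while the regions themselves were called apart. It was -0.24 below control at the LE (adjusted p = 0.237) and 0.39 above control in the hub (adjusted p = 0.114), and LE minus hub was -0.63 (adjusted p = 0.0127, limma). Neither difference from control passed the test on its own. The pattern rests on the probe set used: the other one of the gene was below control in both regions (-0.35 at the LE, adjusted p = 0.0467, and -0.05 in the hub), with LE minus hub at -0.30 (adjusted p = 0.138). Both wound regions were set against the same control arrays, so the test of the difference is that of LE against hub. Groups of 3 arrays are too small for a test of single outlying arrays.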

How the results depend on the processing

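Of the 23 calls among the 27 transporters, 19 held in every leave-one-out fit and 18 in every alternative fit run, and 0 called differences changed sign. Beside Slc38a2 and Slc3a2 for LE against hub, Slc38a7 for LE against control and Slc3a1 for hub against control, Slc38a10 for LE against control was lost with the mean of all probe sets. Of the differences that were not called, 14 were called in some alternative. Leaving out 1 array at a time gave 6 to 7 called for LE against hub, 11 to 13 for LE against control and 2 to 4 for hub against control (8, 12 and 3 with all arrays). Requiring a mean change over 2-fold beside the adjusted p left 2, 4 and 0, and the study's rule of 2-fold in each same-numbered pair left 0, 3 and 0, all lower. The labels give the groups the same replicate numbers, but same-numbered arrays did not deviate together (correlations -0.178 to 0.082). Arrays of different number gave -0.146 to 0.118. The values thus show no pairing by number, but weak correlations among so few arrays cannot exclude it. With the replicate number as a block, 8, 13 and 3 were called, Slc38a2 lost its call between LE and hub, and Slc7a2 was called higher at the LE than in the hub (0.77, adjusted p = 0.0301) and control (0.60, adjusted p = 0.0412). Without the floor 9, 14 and 3 were called, and at a floor of 7.5 there were 7, 11 and 2. Signals near nonspecific background limit the dim carriers.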
